A study of Homo sapiens with 6 samples.

Results

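The RNA-Seq counts of 10 collagen chains were examined in MRC5 cells, a line of human fetal lung fibroblasts. The chains were *COL6A1*, *COL6A2* and *COL6A3* of collagen VI, *COL8A1* and *COL8A2* of collagen VIII, *COL7A1*, the fibril-associated chains *COL12A1*, *COL14A1* and *COL16A1*, and the transmembrane chain *COL13A1*. They were chosen by gene name, as the rows of the deposited count table whose identifiers carry these symbols in GENCODE, and make up 10 of 58676 gene identifiers. All 10 were among the 19072 genes tested, those whose 6 libraries held 10 counts or more between them. The control ATII CM group (n = 3) received conditioned media (CM) from untreated ATII ER:KRASV12 cells, an alveolar epithelial type II line in which 4-hydroxytamoxifen (4-OHT) switches on RAS. The 4-OHT ATII CM group (n = 3) received CM from the same cells after 24 h with 4-OHT, and in both groups the fibroblasts were in CM for 24 h. The comparison asks how fibroblast transcripts differ when the medium comes from RAS-activated epithelial cells. Fibroblasts and epithelial cells were a single line each, the labels do not say that 4-OHT was removed from the medium, and the action of 4-OHT itself therefore cannot be told apart from that of secreted factors. The labels also do not say that the libraries of a group came from separate cultures, so the p values measure the spread between these libraries, which may be technical.

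Collagen VI is a heterotrimer of an α1, an α2 and an α3 chain that assembles into beaded microfilaments around cells, where it links basement membranes to the interstitial matrix. Collagen VIII forms short-chain networks, and collagen VII forms the anchoring fibrils beneath epithelia. Collagens XII, XIV and XVI do not form fibrils of their own. They belong to or resemble the fibril-associated collagens with interrupted triple helices, which decorate fibrils of collagen I and other collagens and alter their spacing and mechanics. Collagen XIII spans the plasma membrane and sits at cell adhesion sites. Lung fibroblasts make most of the interstitial matrix, in which collagen VI and collagen XII are abundant.

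Library totals ranged from 17691849 to 26389449 counts, with control replicate 2 the smallest. The 10 chains together took 1.427% and 1.419% of the counts of control replicates 1 and 3, 1.195% of control replicate 2, and 1.18% to 1.228% of the 4-OHT libraries. Control replicate 2 also stood apart on the second principal component, which held 22.9% of the variance, with a score of -15.7 where the other libraries scored from -2.5 to 10.1. In addition, its transcripts with long exons read lower than in the other controls, a trend that is set beside the chains further on. The fold changes and ratios of the chains are therefore given with and without this library. The 9 fibroblast markers examined were abundant, with 36410.3 to 39706.4 summed CPM (counts scaled to the same library size) in control and 37583.9 to 39100.5 in 4-OHT libraries. Of 9 epithelial markers, the lung epithelial genes *SFTPC* and *SFTPB* had 1 count each and *CDH1* had 4 over all libraries, and *NKX2-1* had 0. *EPCAM* and *CLDN4* were at means of 0.361 and 0.517 CPM, whereas the keratins *KRT18*, *KRT8* and *KRT19* were at 52.6, 33.1 and 7.16 CPM. The epithelial sum was 91.2 to 97.2 CPM in control and 88.9 to 95 CPM in 4-OHT libraries.

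Levels of different chains were compared as CPM per kilobase of exon, with the exon length given in the count table. That length merges all annotated exons of a gene and can exceed that of the transcripts made. The levels per kb can therefore be too low, to a degree that may differ between genes. *COL6A2* had the highest level, between 563.9 and 609.2 CPM per kb over the 6 libraries. Next came *COL6A1* with 410.1 to 462.0, *COL6A3* with 211.6 to 291.2 and *COL12A1* with 116.7 to 171.0 CPM per kb. These 4 chains formed the abundant end, and none overlapped its neighbour in the order. *COL16A1* followed with 26.6 to 28.0 CPM per kb, clear of *COL8A1* with 19.6 to 22.6. *COL8A1* overlapped *COL7A1* (16.0 to 20.7 CPM per kb), and *COL7A1* overlapped *COL14A1* (12.2 to 19.0 CPM per kb), so the order among these neighbours was not separated. *COL13A1* with 4.33 to 5.85 and *COL8A2* with 1.52 to 1.86 CPM per kb were the lowest. The α2 chain of collagen VIII was thus the rarest, with between 138 and 228 counts per library.

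**Figure D1:**
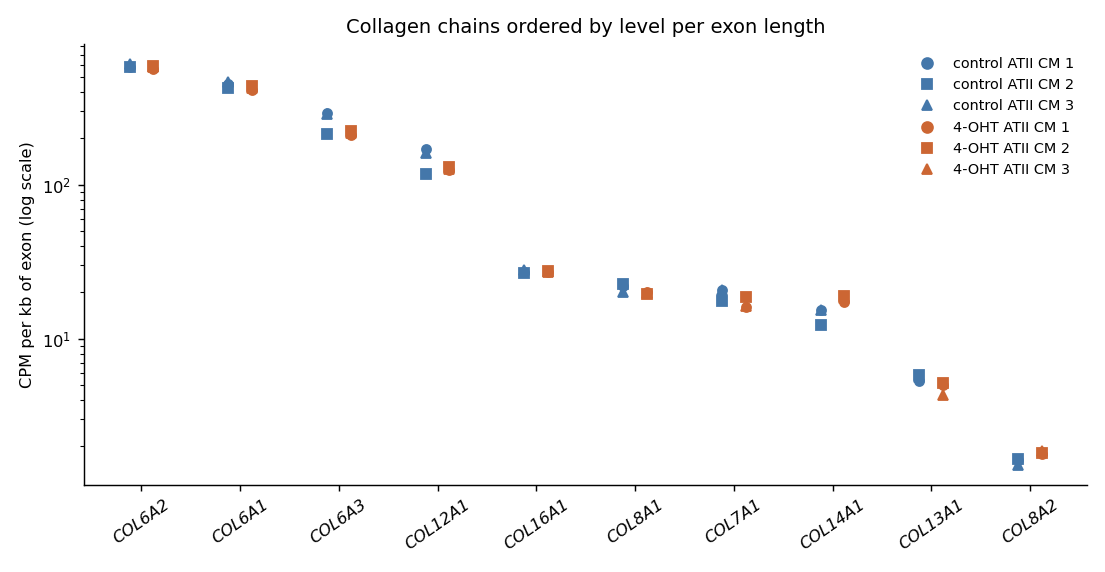
Level of each chain as CPM per kb of exon (log axis) in the 3 control (blue) and 3 4-OHT (orange) libraries, 1 point per library. The collagen VI chains and COL12A1 sit above 100 CPM per kb, COL8A2 below 2, and only the ranges of COL8A1, COL7A1 and COL14A1 run into each other.

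Between the groups, *COL14A1* rose in 4-OHT ATII CM and *COL6A3* fell, and the other 8 chains did not pass the test. So 1 of 10 chains was called higher, where 2.95% of all genes tested were, and 1 was called lower, where 2.76% of all genes were (edgeR, adjusted p below 0.05). In either direction the background was 5.72%. At an unadjusted p under 0.05 there were 7 of 10 chains, against 17.3% of all genes. These shares are not matched for level or exon length. Of the genes tested, 9202 had a mean of at least 10 CPM, as did all chains but *COL8A2*. The log2 fold change (4-OHT minus control) was negative for 8 chains and positive for 2, with a median of -0.099, against a median of -0.00204 over all genes tested. The 2 groups did not overlap in CPM for 4 chains (*COL8A1*, *COL8A2*, *COL13A1* and *COL14A1*), and for 22.1% of all genes. Without control replicate 2, 4 chains were called lower (*COL6A1*, *COL6A3*, *COL7A1* and *COL12A1*) against 4.46% of genes, and *COL14A1* was called higher against 3.73% of genes. That fit rests on control replicates 1 and 3, in which transcripts with long exons read high. In the decile with the longest exons, the 4-OHT libraries were lower than these controls by a median log2 difference of -0.06. *COL6A3*, *COL7A1* and *COL12A1* are in that decile, whereas the shares cover genes of all lengths. In bulk libraries such as these, fewer cells of a kind and less RNA per cell cannot be told apart.

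**Figure D2:**
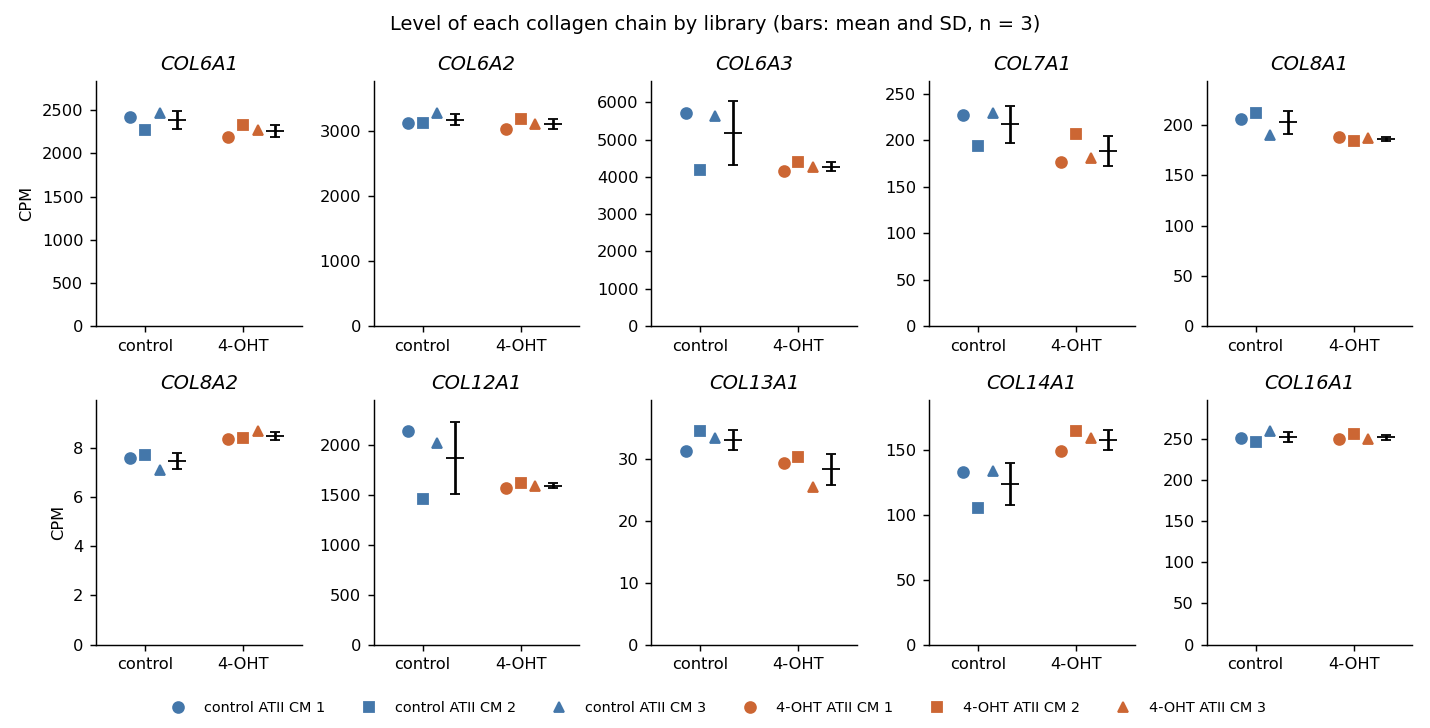
CPM of each chain in each library (control blue, 4-OHT orange, marker shape by replicate number, which is not taken as a pairing), with bars for mean and SD (n = 3) and axes that start at 0. COL14A1 lies higher in all 3 4-OHT libraries, and control replicate 2 lies among the 4-OHT libraries for COL6A3 and below them for COL12A1.

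**Figure D3:**
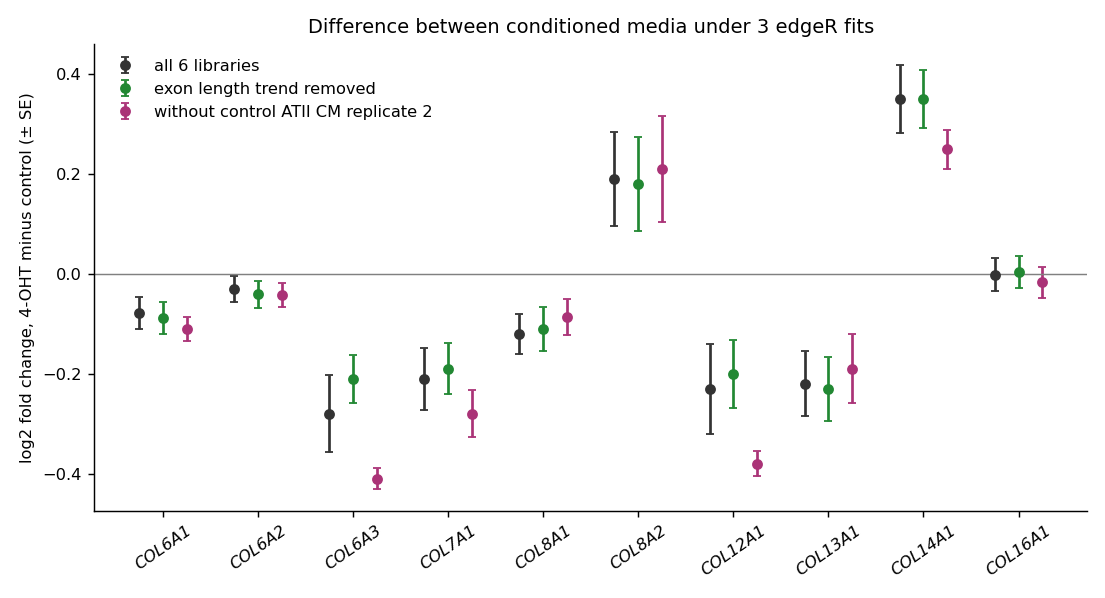
Log2 fold change (4-OHT minus control, ± SE) of each chain from edgeR with all 6 libraries, after removal of the trend with exon length, and without control replicate 2. COL6A3 moves from -0.28 to -0.41 and COL12A1 from -0.23 to -0.38 without that library, while COL14A1 moves from 0.35 to 0.25.

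Sequence upstream of 3 of these genes is shown. *COL12A1* and *COL7A1* were chosen because they read lower in control replicate 2 and the 4-OHT libraries than in control replicates 1 and 3, and *COL6A2* as the steady abundant chain. Whether the stretches bear on these readings was not tested. *COL6A3* also read low in these libraries, but its RefSeq stretch overlaps exons of the count table and is not printed. Each stretch runs from 250 to 21 bases before the RefSeq start on GRCh38.p14, 5′ to 3′ on the strand of the gene. Capitals mark matches on either strand to the GC box (GGGCGG), the TATA box (TATAAA), the CCAAT box (CCAAT), an AP-1 site (TGACTCA) or the SMAD box (CAGAC), which did not overlap one another. The stretches are chr21:46097862-46098091 on the plus strand for *COL6A2*, chr3:48595350-48595579 on the minus strand for *COL7A1* and chr6:75206074-75206303 on the minus strand for *COL12A1*.
COL6A2: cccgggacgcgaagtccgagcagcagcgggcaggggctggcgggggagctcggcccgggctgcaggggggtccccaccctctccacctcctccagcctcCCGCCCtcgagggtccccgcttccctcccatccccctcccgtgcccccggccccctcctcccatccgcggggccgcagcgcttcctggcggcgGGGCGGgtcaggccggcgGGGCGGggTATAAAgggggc
COL7A1: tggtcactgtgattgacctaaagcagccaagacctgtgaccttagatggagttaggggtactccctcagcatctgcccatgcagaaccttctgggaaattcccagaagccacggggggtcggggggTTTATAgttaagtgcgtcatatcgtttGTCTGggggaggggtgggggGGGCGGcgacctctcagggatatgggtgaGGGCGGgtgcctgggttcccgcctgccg
COL12A1: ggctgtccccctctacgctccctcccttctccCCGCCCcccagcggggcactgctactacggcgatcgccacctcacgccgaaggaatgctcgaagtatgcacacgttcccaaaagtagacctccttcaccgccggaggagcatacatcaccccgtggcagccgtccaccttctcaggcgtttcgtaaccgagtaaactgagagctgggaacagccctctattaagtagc
The *COL6A2* stretch held 3 GC boxes and 1 TATA box in 79.1% GC. That of *COL7A1* held 2 GC boxes, 1 TATA box and 1 SMAD box in 59.6% GC. That of *COL12A1* held 1 GC box in 60.4% GC, and that of *COL6A3* held 0 GC boxes and 1 SMAD box. Among 35116 RefSeq stretches of the same length, 40% held a GC box, 10.4% a TATA box, 30.7% a CCAAT box, 3.93% an AP-1 site and 35.8% a SMAD box. RefSeq stretches were found for 7 of the 10 chains, not for *COL6A1*, *COL8A1* and *COL14A1*, and none of the 7 held the CCAAT box or the AP-1 site as spelled here.

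*COL6A3* encodes the α3 chain of collagen VI, the longest of the 3, whose C-terminal end is released as endotrophin. Its gene (ENSG00000163359, chromosome 2, 237324003 to 237414375, minus strand) has 19633 bases of exon. *COL6A3* was at 5717.0, 4186.6 and 5627.5 CPM in control replicates 1 to 3 and at 4154.7, 4395.0 and 4258.9 CPM in the 4-OHT libraries. Control replicates 1 and 3 were above every 4-OHT library, and control replicate 2 was within their range, so that the groups overlapped. The means were 5177.0 ± 858.9 CPM in control and 4269.6 ± 120.5 CPM in 4-OHT (SD, n = 3), and *COL6A3* was 17.5% lower in 4-OHT (log2 fold change -0.28, SE 0.0773, edgeR adjusted p = 0.046). With control replicate 2 left out it was 24.7% lower (log2 fold change -0.41, SE 0.0215, adjusted p = 1.52e-09). Leaving out another library ended the call, with adjusted p = 0.186 and 0.182 without control replicates 1 and 3, and 0.157, 0.109 and 0.113 without 4-OHT replicates 1, 2 and 3. The log2 fold changes in these fits were -0.20 and -0.22, and -0.25, -0.30 and -0.28. DESeq2 did not call *COL6A3* either (log2 fold change -0.28, adjusted p = 0.249).

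*COL6A1* and *COL6A2*, which encode the shorter α1 and α2 chains, lie near each other on chromosome 21. *COL6A1* (ENSG00000142156, 45981737 to 46005050, 5343 bases of exon) was at 2419.4, 2271.9 and 2468.6 CPM in control and 2191.0, 2325.6 and 2267.2 CPM in 4-OHT libraries. Control replicate 2 again was within the range of the 4-OHT libraries. The difference was 5.26% and was not called (log2 fold change -0.0779, SE 0.032, adjusted p = 0.207). It was called without control replicate 2, at 7.46% lower (log2 fold change -0.11, SE 0.024, adjusted p = 0.00544). It was -0.0509 without 4-OHT replicate 1 (SE 0.0345, adjusted p = 0.541) and -0.0587 without control replicate 3 (SE 0.034, adjusted p = 0.462). *COL6A2* (ENSG00000142173, 46098097 to 46132849, 5386 bases of exon), whose upstream stretch is given above, was at 3132.0, 3124.5 and 3281.1 CPM in control and 3037.1, 3187.6 and 3115.1 CPM in 4-OHT libraries. The ranges overlapped, and the fold change of -0.0302 on the log2 scale was close to its SE of 0.027 (adjusted p = 0.637). With control replicate 2 left out it was -0.0424 (SE 0.0238, adjusted p = 0.362), with 4-OHT replicate 1 left out -0.00798 (SE 0.0296), and with control replicate 3 left out -0.0127 (SE 0.0281). No alternative fit called *COL6A2*, with adjusted p between 0.183 and 0.941.

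Since the 3 chains join in a single molecule, their ratios per kb were compared within each library. The size of a ratio depends on the merged exon lengths and does not measure the proportion of the chains. The fold difference between the groups does not depend on them. The *COL6A3* to *COL6A1* ratio was 0.643, 0.501 and 0.62 in control and 0.516, 0.514 and 0.511 in 4-OHT libraries. Thus control replicate 2 had the lowest ratio of all, and the 4-OHT libraries lay between 0.511 and 0.516. The exact two-sided permutation test gave p = 0.4 (n = 3 per group), where 3 libraries against 3 cannot go below 0.1. The log2 difference was -0.19, and it was -0.30 without control replicate 2 (exact permutation p = 0.2, the smallest for 2 libraries against 3), when the groups no longer overlapped. It was -0.12 without control replicate 1 (exact permutation p = 0.8). With the exon length trend removed it was also -0.12, and the groups did not overlap (exact permutation p = 0.1). The gap was narrow, because control replicate 2 lay much closer to the 4-OHT libraries than to the other controls. The *COL6A2* to *COL6A1* ratio was 1.28, 1.36 and 1.32 in control and 1.38, 1.36 and 1.36 in 4-OHT libraries. The groups met at 1.36 (log2 difference 0.05, exact permutation p = 0.3, n = 3 per group), and the log2 difference was 0.07 without control replicate 2 and 0.03 without control replicate 1.

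**Figure D4:**
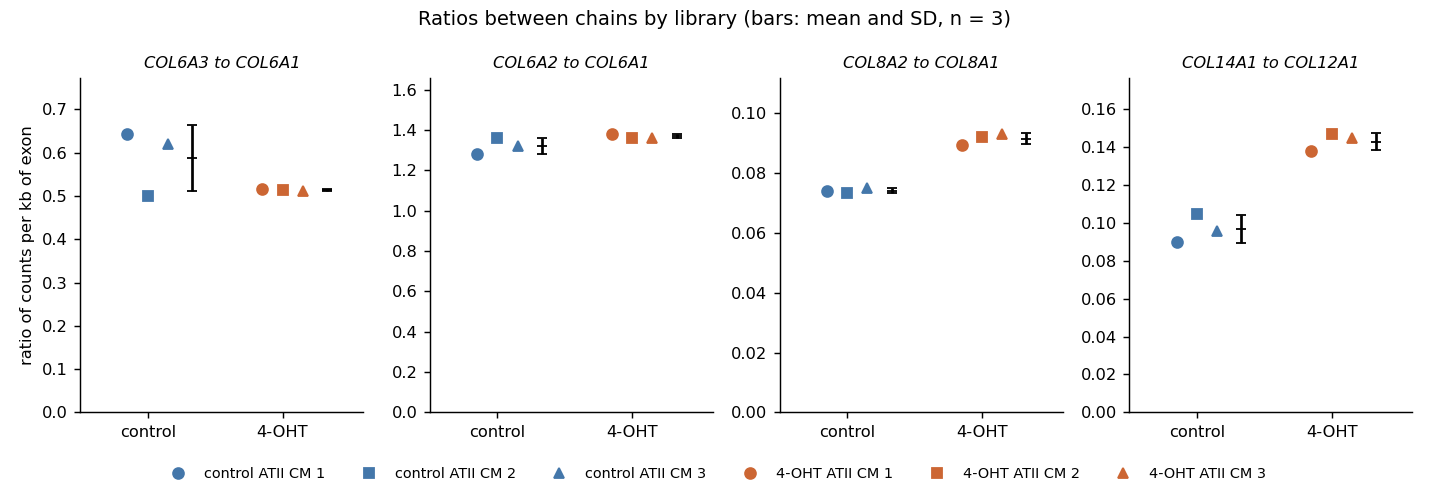
Ratios of counts per kb of exon between pairs of chains in each library (control blue, 4-OHT orange), with bars for mean and SD (n = 3) and axes that start at 0. The COL8A2 to COL8A1 and COL14A1 to COL12A1 ratios are higher in every 4-OHT library, and both collagen VI ratios overlap between the groups.

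The chains of collagen VIII, a matrix component of vessel walls and of the corneal endothelium that is also made by activated mesenchymal cells, had fold changes of opposite sign, and neither passed the test. *COL8A1* (ENSG00000144810, chromosome 3, 99638475 to 99799226, 9408 bases of exon) was at 206.0, 212.3 and 190.3 CPM in control and 188.0, 184.3 and 187.6 CPM in 4-OHT libraries. All 3 control values were higher, the nearest with 190.3 against 188.0 CPM (log2 fold change -0.12, SE 0.0403, adjusted p = 0.108). It was -0.09 with control replicate 2 left out (SE 0.0354, adjusted p = 0.171). Without control replicate 3 *COL8A1* was called lower (log2 fold change -0.17, SE 0.0403, adjusted p = 0.0292). *COL8A2* (ENSG00000171812, chromosome 1, 36095236 to 36125220, 4670 bases of exon) was at 7.59, 7.73 and 7.1 CPM in control and 8.36, 8.42 and 8.67 CPM in 4-OHT libraries. The 4-OHT values were all higher, at low counts (log2 fold change 0.19, SE 0.0934, adjusted p = 0.328), and no alternative called it (0.21 without control replicate 2, SE 0.107, adjusted p = 0.303). The *COL8A2* to *COL8A1* ratio per kb was 0.0742, 0.0733 and 0.0752 in control and 0.0896, 0.0921 and 0.0931 in 4-OHT libraries. The groups did not overlap and the ratio was 1.23-fold higher in 4-OHT, with an exact two-sided permutation p = 0.1, the smallest that 3 against 3 can give. Its log2 difference was 0.30, and 0.29 without control replicate 2.

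*COL7A1*, the chain of the anchoring fibrils (ENSG00000114270, chromosome 3, 48564073 to 48595267, minus strand, 11071 bases of exon), was at 227.7, 194.5 and 229.6 CPM in control and 176.9, 206.7 and 180.8 CPM in 4-OHT libraries. Control replicate 2 was below 4-OHT replicate 2, and all other control values were above all 4-OHT values. *COL7A1* was 13.5% lower in 4-OHT and just missed the threshold (log2 fold change -0.21, SE 0.0621, adjusted p = 0.0637). It was called lower without control replicate 2 (17.7% lower, log2 fold change -0.28, SE 0.0475, adjusted p = 0.000728) and also without 4-OHT replicate 2 (log2 fold change -0.28, SE 0.0608, adjusted p = 0.0243). Over 17 alternatives 8 called it, and its adjusted p reached 0.253 without 4-OHT replicate 1. Its exons share 36 bases with *MIR711*, which had 0 counts in each library.

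The fibril-associated chains *COL12A1* and *COL14A1*, whose proteins are built alike and bind fibrils of collagen I, differed from each other. *COL12A1* (ENSG00000111799, chromosome 6, 75084326 to 75206051, minus strand, 12481 bases of exon) was at 2134.1, 1456.2 and 2018.6 CPM in control and 1564.9, 1619.5 and 1591.7 CPM in 4-OHT libraries. Control replicate 2 was the lowest library of all, and the other 2 controls were the highest. The mean was 1869.6 ± 362.7 CPM in control and 1592.0 ± 27.3 CPM in 4-OHT (SD, n = 3), and the difference of 14.9% was not called (log2 fold change -0.23, SE 0.0897, adjusted p = 0.173). Once control replicate 2 was left out, *COL12A1* was 23.3% lower (log2 fold change -0.38, SE 0.0251, adjusted p = 1.74e-08). It was -0.13 without control replicate 1 (SE 0.084, adjusted p = 0.51) and -0.18 without control replicate 3 (SE 0.0973, adjusted p = 0.424).

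*COL14A1* (ENSG00000187955, chromosome 8, 120059780 to 120372036, 8647 bases of exon) was the chain that rose. It was at 133.0, 105.4 and 133.7 CPM in control and 149.6, 164.6 and 159.7 CPM in 4-OHT libraries. Every 4-OHT value was above every control value, and control replicate 2 was the lowest. The mean was 124.0 ± 16.1 CPM in control and 158.0 ± 7.63 CPM in 4-OHT (SD, n = 3), and *COL14A1* was 27.1% higher (log2 fold change 0.35, SE 0.068, edgeR adjusted p = 0.00572). The rise was smaller without control replicate 2 and was still called (log2 fold change 0.25, SE 0.0389, adjusted p = 0.000383). Of 17 alternatives 16 called it, and without 4-OHT replicate 2 it missed the threshold (log2 fold change 0.31, SE 0.0787, adjusted p = 0.0519).

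The *COL14A1* to *COL12A1* ratio per kb was 0.0899, 0.105 and 0.0956 in control and 0.138, 0.147 and 0.145 in 4-OHT libraries. The groups did not overlap, control replicate 2 stayed with the other controls, and the ratio was 1.48-fold higher in 4-OHT (log2 difference 0.57, exact two-sided permutation p = 0.1, the smallest possible with n = 3 per group). Without control replicate 2 the log2 difference was 0.63. *COL16A1*, which resembles the fibril-associated collagens and is found near cells and in fibrillin-rich matrix, was level (ENSG00000084636, chromosome 1, 31652247 to 31704319, minus strand, 9269 bases of exon). It was at 250.9, 246.5 and 259.1 CPM in control and 250.3, 255.8 and 249.8 CPM in 4-OHT libraries. The ranges lay within each other and the log2 fold change was -0.00131 (SE 0.0333, adjusted p = 0.992), with a sign that changed between alternatives (-0.02 without control replicate 2, SE 0.0301, adjusted p = 0.84). Its exons share 117 bases, 1.26% of their length, with *PEF1-AS1* on the opposite strand, which had 6 to 22 counts per library beside 4402 to 6566 for *COL16A1*.

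*COL13A1*, the transmembrane chain (ENSG00000197467, chromosome 10, 69801867 to 69964275, 5888 bases of exon), was at 31.3, 34.4 and 33.3 CPM in control and 29.3, 30.2 and 25.5 CPM in 4-OHT libraries. All control values were higher, and here control replicate 2 was the highest library. *COL13A1* was 14.2% lower in 4-OHT and just missed the threshold (log2 fold change -0.22, SE 0.0654, adjusted p = 0.0625). Without 4-OHT replicate 3, its lowest library, the log2 fold change was -0.15 (SE 0.0647, adjusted p = 0.294). Without control replicate 2 it was -0.19 (SE 0.0688, adjusted p = 0.105). The low reading in control replicate 2 was therefore not a feature of all 10 chains.

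All 10 chains had more exon than the median of 4019 bases over the genes tested, so their differences were set beside those of genes of like length. Among 9202 genes with a mean of at least 10 CPM, Spearman's rho between exon length and a library's deviation from the mean was 0.293, -0.313 and 0.154 in control replicates 1 to 3 and between -0.054 and -0.028 in the 4-OHT libraries. These values run across genes, which are not independent replicates, and describe the libraries. In the decile with the longest exons (11048 to 46064 bases, 920 genes), control replicate 2 was lower than the mean of control replicates 1 and 3 by a median log2 difference of -0.12. In the decile with the shortest exons it was higher, by 0.057.

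The difference of control replicate 2 from the other controls was larger than this median for the long chains. It was -0.44 for *COL6A3*, and 4.57% of the genes of its decile were lower still. For *COL12A1* it was -0.51, with 2.61% of its decile lower, and for *COL7A1* -0.23, with 25% lower. *COL7A1* was therefore well within the spread of genes of its length, and *COL6A3* and *COL12A1* were near its edge. *COL14A1*, in the decile with a median of -0.032, was at -0.34 with 1.41% of genes lower. By contrast *COL8A1* at 0.1 and *COL13A1* at 0.09 were above the medians of their deciles (-0.058 and -0.001), and *COL16A1* at -0.05 was close to its own (-0.058). Chains of similar exon length thus differed, as *COL8A1*, *COL16A1* and *COL14A1* have between 8647 and 9408 bases.

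The mean of the 4-OHT libraries, set against control replicates 1 and 3 in the same way, was at -0.41 for *COL6A3*, -0.38 for *COL12A1* and -0.28 for *COL7A1*, where the median of their decile was -0.06. Lower genes made up 3.7%, 4.57% and 10.4% of that decile. Of the chains with shorter exons, *COL13A1* at -0.19 and *COL6A1* at -0.11 were also low in their own deciles, with 3.8% and 9.79% of genes lower. For *COL6A2*, *COL8A1* and *COL16A1* the share lower was 24.8%, 30.3% and 53.6%. *COL14A1* was at 0.24, and 97.8% of the genes of its decile were lower. For *COL6A3* the distance from control replicates 1 and 3 was thus nearly the same in control replicate 2 (-0.44) as in the 4-OHT libraries, for *COL12A1* it was larger in control replicate 2 (-0.51), and for *COL14A1* it had the opposite sign in control replicate 2. Both distances are taken from the same control replicates 1 and 3, so a high reading there would lower both. *COL6A3* was 0.29 and 0.27 above its log2 mean over all libraries in those controls. It was at -0.16 in control replicate 2 and at -0.17, -0.09 and -0.14 in the 4-OHT libraries. Whether the length trends of the control replicates are part of these readings was not tested beyond the fits that follow.

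**Figure D5:**
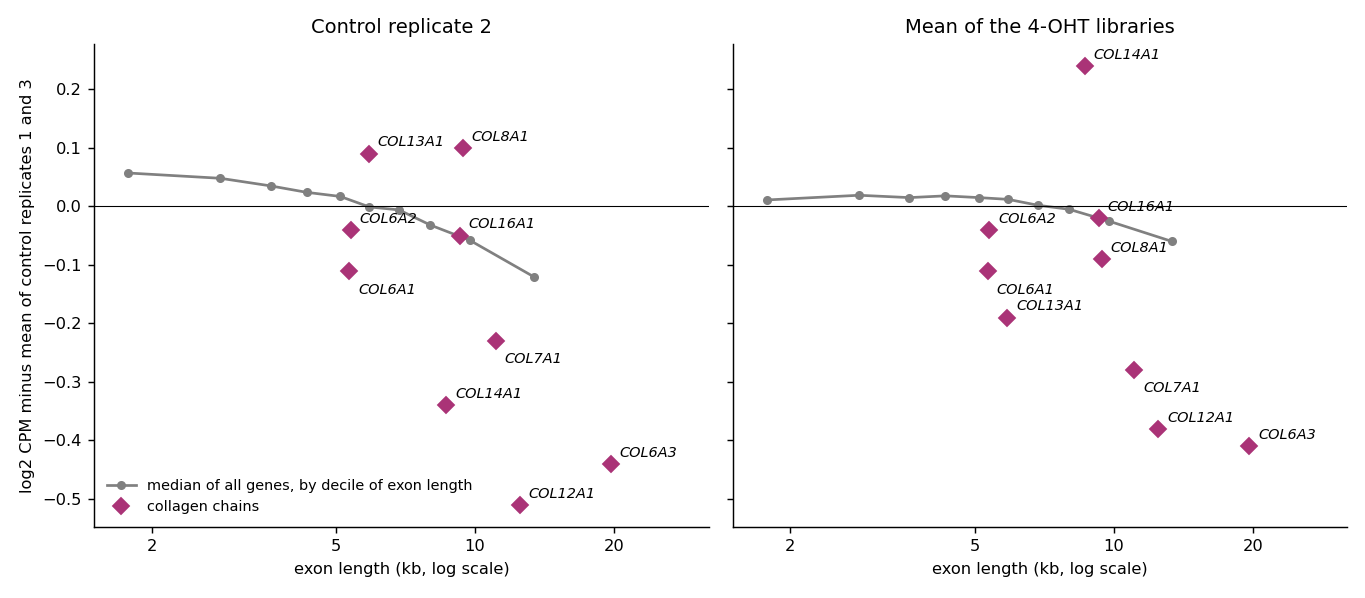
Log2 CPM of control replicate 2 (left) and of the mean of the 4-OHT libraries (right) minus the mean of control replicates 1 and 3, against exon length in kb (log axis), for 9 chains (diamonds) and as the median of all genes by decile of exon length (grey line). COL8A2, below 10 CPM, is not shown. COL6A3 and COL12A1 lie well under the line in both panels, and COL14A1 lies under it on the left and over it on the right.

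When the trend with exon length was removed from every library, 3 chains were called lower, against 3.2% of all genes, and 1 higher, against 3.37%. *COL6A3* remained lower (log2 fold change -0.21, SE 0.0476, adjusted p = 0.0106), and *COL7A1* (-0.19, SE 0.0513, adjusted p = 0.0323) and *COL13A1* (-0.23, SE 0.0642, adjusted p = 0.0365) passed the threshold. *COL14A1* had the same log2 fold change as before (0.35, SE 0.058, adjusted p = 0.000985), and *COL12A1* was not called (-0.20, SE 0.0685, adjusted p = 0.0995). After removal *COL12A1* was at 2050.4, 1521.6 and 1960.9 CPM in control and 1580.2 to 1630.8 CPM in 4-OHT libraries, so that control replicate 2 was still below all others. *COL6A3* was at 5329.8, 4454.6 and 5335.9 CPM in control and 4251.9 to 4469.0 CPM in 4-OHT libraries, with control replicate 2 at the upper end of the 4-OHT range. With the trend removed and control replicate 2 left out, a fit chosen after the data were seen, *COL12A1* was at -0.32 (SE 0.0234, adjusted p = 4.07e-08) and *COL6A3* at -0.29 (SE 0.0201, adjusted p = 2.44e-08). *COL7A1* and *COL6A1* were also called lower in that fit.

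The genes whose values over the 6 libraries were most like those of a chain were found as the smallest root mean square difference of centred log2 CPM, among 9201 genes. For *COL6A3* these were *EP300* (difference 0.0239), *LAMA5* (0.0338), *COL12A1* (0.0403), *SPTAN1* (0.0405) and *NAV1* (0.0405). *COL12A1* was thus the collagen closest to *COL6A3*. For *COL12A1* they were *MYCBP2* (0.0164), *FBN1* (0.0167), *SPEN* (0.0287), *FAT4* (0.0323) and *LRP1* (0.0337). All 10 of these genes had between 12481 and 22453 bases of exon and fall in the decile with the longest exons. For *COL14A1* the closest were *SLC4A4* (0.0367), *BMP5* (0.0527), *ADAMTS5* (0.0538), *A2M* (0.0613) and *BMF* (0.0621), with 3952 to 9622 bases.

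Other collagens were given the same test. Of 13 other chains of these classes, 6 were tested and none was called in either direction (0 by edgeR, DESeq2 and limma-voom, and 0 at an unadjusted p under 0.05), and the other 7 (*COL6A5*, *COL6A6*, *COL9A1*, *COL19A1*, *COL20A1*, *COL22A1* and *COL23A1*) had between 0 and 7 counts over all libraries. The most abundant of them, *COL9A2* and *COL9A3* of the fibril-associated collagen IX, were at means of 4.37 and 1.31 CPM. The collagen VI and fibril-associated transcripts of these cells were thus nearly all those of the chains described above. Of 7 fibrillar chains, which form the fibrils that collagens XII and XIV coat, edgeR called 1 higher, against 2.95% of all genes, and 0 lower, against 2.76% (limma-voom called *COL1A1* lower, adjusted p = 0.0457), 3 had an unadjusted p under 0.05, where 17.3% of all genes did, and the median log2 fold change was -0.003. *COL3A1* rose (log2 fold change 0.18, SE 0.0255, adjusted p = 0.000463), whereas *COL1A1* (-0.0925, SE 0.0294, adjusted p = 0.0861) and *COL1A2* (-0.0147, SE 0.0339, adjusted p = 0.888) were not called. Without control replicate 2, *COL1A1* (-0.14, adjusted p = 1.8e-05) and *COL1A2* (-0.06, adjusted p = 0.0411) were called lower, where 4.46% of all genes were.

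Among 14 receptors and binding partners of these collagens, 13 were tested, 3 were called higher (2.95% of all genes) and 1 lower (2.76% of all genes), 10 had an unadjusted p under 0.05 (17.3% of all genes), and the median log2 fold change was 0.085. *DCN*, which encodes decorin, a proteoglycan that binds collagen fibrils and collagens VI and XIV, rose from 3877.8 ± 5.38 to 4872.4 ± 139.0 CPM (SD, n = 3; log2 fold change 0.33, SE 0.0242, adjusted p = 2.66e-06). *ANTXR1*, a cell surface receptor that binds collagen VI, rose (log2 fold change 0.22, SE 0.0358, adjusted p = 0.00171), as did *MRC2*, the receptor that takes up collagen for breakdown (0.10, SE 0.0276, adjusted p = 0.042). The call of *MRC2* was lost when any library other than control replicate 2 was left out (adjusted p from 0.0808 to 0.184), with the replicate block (0.0632), with the exon length trend removed (0.0551) and with both (0.0749). *CSPG4*, the NG2 proteoglycan, which binds the α2 chain of collagen VI, fell from 114.1 ± 4.19 to 91.6 ± 1.21 CPM (SD, n = 3; log2 fold change -0.32, SE 0.0386, adjusted p = 0.000143). *ITGB1*, the β chain of the collagen-binding integrins, was not called (0.0638, SE 0.0243, adjusted p = 0.164). Without control replicate 2 the counts were 3 higher and 3 lower, against 3.73% and 4.46% of all genes. The lower ones were *CSPG4* and the integrin α chains *ITGA2* (log2 fold change -0.21, adjusted p = 0.00158) and *ITGA11* (-0.12, adjusted p = 0.00898). With the exon length trend removed the counts were 3 higher and 2 lower, against 3.37% and 3.2% of all genes. In that fit the integrin α chain *ITGA1* was called higher (0.12, adjusted p = 0.0272) and *ITGA2* lower (-0.16, adjusted p = 0.0497).

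Genes of collagen biosynthesis and processing were examined too. All 24 were tested, with 0 called higher and 0 lower by edgeR, and 5 had an unadjusted p under 0.05, against 17.3% of all genes. DESeq2 and limma-voom called 1 lower each, *PLOD3*, a lysyl hydroxylase (adjusted p = 0.0461 and 0.0441). Over the list, the log2 fold change was positive for 12 and negative for 12 with a median of -0.001. The most abundant were *SERPINH1*, the collagen chaperone HSP47 (0.0655, SE 0.0272, adjusted p = 0.213), and *P4HB*, a subunit of prolyl 4-hydroxylase (-0.0299, SE 0.0321, adjusted p = 0.713). Without control replicate 2, *SERPINH1* was called higher (0.09, adjusted p = 0.0142). Of the muscle and myofibroblast markers 4 of 5 were tested and none was called by edgeR, DESeq2 or limma-voom (3 at an unadjusted p under 0.05, against 17.3% of all genes), with summed levels of 1595.1 to 1619.9 CPM in control and 1657.3 to 1701.3 CPM in 4-OHT libraries. Of the fibroblast markers 3 of 9 were called higher (*DCN*, *LUM* and *PDGFRA*), against 2.95% of all genes, and 1 lower (*VIM*, log2 fold change -0.10, SE 0.0273, adjusted p = 0.0414), against 2.76%. The number lower was 3 without control replicate 2 (*VIM*, *COL1A1* and *COL1A2*), against 4.46% of all genes. It was 0 without control replicate 3 or any 1 of the 4-OHT libraries, where the adjusted p of *VIM* was 0.0759 to 0.212, and 0 with the replicate block (0.057). Of the epithelial markers none of the 5 tested was called by any of these tools (0 at an unadjusted p under 0.05). Of the endothelial and leukocyte markers 1 of 5 was tested and not called, and *PECAM1* and *CDH5* had 0 counts.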

How the data were processed

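RNA-Seq of polyA RNA from MRC5 cells was analysed, with groups taken from the sample labels (3 libraries each). According to the methods and the submitters' processing notes, reads were trimmed with Trim Galore, mapped to GRCh38 with HISAT2 2.1.0 and counted with featureCounts 1.6.5. The strand setting, the annotation release and the treatment of reads with several matches are not given in the sources used here. The authors deposited raw counts per gene with merged exon lengths, without normalization, and no other unit was used.

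The table has 58721 lines for 58676 identifiers, because 45 are listed on X and Y, and those counts were added. Symbols came from GENCODE. Genes with at least 10 summed counts (19072) were tested with edgeR 4.0.16 (R 4.3.3, TMM, quasi-likelihood test, group as the only term) and adjusted over all of them by the Benjamini-Hochberg method at 0.05. Standard errors are the fold change over the root of the F statistic. CPM used TMM library sizes, and log2 CPM a prior count of 2. Totals had a median of 22273931 counts, and the square root of the common dispersion was 4.36%. Alternatives were DESeq2 1.42.0, limma-voom (limma 3.58.1), other normalizations and filters, a 1.5-fold minimum, a replicate block, removal of trends with exon length and GC content (splines with 5 degrees of freedom, GC found for 99.4% of genes), and each library left out. Ratios were compared by exact permutation tests. Scripts were tested on simulated data. With minimap2 2.31 no chain had a copy on the 261 alternate contigs (98% identity over 90% of a transcript) or a near-identical transcript of another gene (95% over 50%). The chains and gene lists were chosen with earlier results of these data known. Genes named are the chains, the called and the 2 most abundant genes of each collagen list, the 5 genes most like *COL6A3*, *COL12A1* and *COL14A1*, genes that overlap a chain, and genes behind counts of 5 or fewer. *ITGA1*, *ITGA2*, *ITGA11*, *PLOD3* and the cell type markers were named after their values were seen.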

Additional observations from a re-analysis of the deposited data

How the results depend on the processing

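Depth was at least 615 counts in each library for 9 of the chains and 138 to 228 for *COL8A2*. The number of genes called was 1090, and was 92 with a change of at least 1.5-fold required and 533 to 1530 with a library left out (663 without control replicate 3, 533 and 615 without 4-OHT replicates 2 and 3). Chains called higher were 1, and 0 with the 1.5-fold minimum, with a range of 0 to 1 over libraries left out (0 without 4-OHT replicate 2). Chains called lower were 1, and were 0 in DESeq2 and with the 1.5-fold minimum, 2 with RLE normalization, 4 without a count filter, 3 with the exon length trend, or the exon length and GC trend, removed, and 3 with the replicate block and the length trend removed. They were 4 with the length trend removed and control replicate 2 left out, and 0 to 4 with a library left out. The cause of these changes was not tested.

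The log2 fold change of *COL16A1* (-0.00131) changed sign to 0.00761 without a count filter, 0.00417 with the length trend removed, 0.0256 with the length and GC trend removed, 0.00401 with the replicate block and the length trend removed, and 0.00955 with the length trend removed and control replicate 2 left out. With a library left out it ran from -0.0171 to 0.013. The other 9 chains kept their direction under all 17 alternatives. Libraries with the same replicate number did not deviate together (correlations -0.014, -0.104 and -0.093, and 0 of 6 libraries was most like the one with its own number). With 3 libraries per group this cannot exclude matched batches, and the labels do not give a pairing. Outside the replicate block fits the numbers are used only as names. With the replicate block, 985 genes, 1 chain higher and 1 lower were called, and the adjusted p of *COL6A3* was 0.0465. The 4 ratios and the order of levels per length changed by less than the replicate spread in every alternative run, although the log2 difference of the *COL6A3* to *COL6A1* ratio (-0.19) was -0.30 without control replicate 2 and -0.12 without control replicate 1. For the collagen VI ratios this criterion could hardly fail. The SD of the log2 ratio in control was 0.194 for *COL6A3* to *COL6A1* and 0.0437 for *COL6A2* to *COL6A1*, beside log2 differences of -0.19 and 0.05.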
